A study of Mus musculus with 82 samples.

Results

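Gene expression was compared between 3 Mutant and 3 Wild type libraries of mouse sciatic nerve taken 14 days post injury. The samples were chosen by their labels alone: they are 6 of the 18 libraries of a time course, and of the 82 libraries in the series. Every gene of the table was considered, 51444 in all, and 15852 passed a filter on low counts and were tested. The groups were Mutant 14 days post injury and Wild type 14 days post injury, with 3 libraries each, and the Mutant and Wild type nerves at 3 and 7 days post injury, again 3 libraries each, served for comparison over time. The labels give the tissue, the word Mutant or Wild type, and the day. They do not name the altered gene, the allele, a Cre driver, the strain, the age or the kind of injury. The series title concerns Mitf in Schwann cells, but Mutant is used here only as a label. Whether the 3 libraries within a group came from different mice is not in the labels, nor do the sample titles say whether a library holds a single nerve. A nerve in this text therefore stands for a library. The p-values rest on the variation among libraries alone, part of which may be technical. That variation was estimated over all 18 libraries of the time course, not over the 6 of day 14 alone.

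As background, a peripheral axon cut off from its cell body breaks down, and the Schwann cells that wrapped it shed their myelin, divide and take on a repair state driven by the transcription factor Jun. Macrophages enter and help to clear myelin debris, and later Schwann cells wrap regrown axons again. Mitf belongs to the MiT/TFE transcription factors, which bind E-box DNA and are known for pigment cell genes and, through Tfeb and Tfe3, for lysosomal genes.

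Each of the 6 libraries held between 15.6 M and 19.7 M estimated counts. Levels are given as CPM, counts-per-million of the library total after TMM scaling, and log2 changes are estimates of the fit, Mutant minus Wild type. Schwann cell and myelin genes were present in all 6 nerves: Sox10, a transcription factor of the Schwann cell lineage, had 38.6, 36.6 and 102 CPM in Mutant nerves, against 43.7, 21.5 and 24.1 CPM in Wild type nerves, and Mbp, myelin basic protein, had 615, 317 and 240.1 CPM in Mutant nerves, against 479, 446 and 247 CPM in Wild type nerves. Skeletal muscle RNA was present too and differed widely within each genotype, as described below. Mutant library 3 stood apart from the other 5, with the steepest dependence of counts on transcript length and the lowest share of ribosomal protein counts, 5.52% against 8.41% to 13.4%. The spread between replicates was largest at this day, with a biological coefficient of variation of 34.6% at 14 days, 24.9% at 7 days and 15.5% at 3 days. The fit over all 18 libraries, on which the tests rest, had a coefficient of 26.4%, below that of day 14 and above those of days 7 and 3.

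Mitf itself (ENSMUSG00000035158.15, chromosome 6, 97807052 to 98021349, plus strand; positions are those of GENCODE vM21 on mm10) did not differ detectably between the genotypes at day 14. It had 6.73, 4.85 and 5.24 CPM in Mutant nerves, against 4.89, 4.43 and 4.77 CPM in Wild type nerves, and the groups overlapped. The log2 change was 0.26 (SE 0.25, adjusted p = 0.505) in edgeR's quasi-likelihood test, and a count over the whole gene does not show the loss of single exons. Fig4, a phosphoinositide phosphatase, averaged 16.4 ± 3.26 CPM in Mutant nerves and 16.9 ± 3.09 CPM in Wild type nerves (SD, n = 3 each), with a log2 change of -0.038 (SE 0.16, adjusted p = 0.895). Ndrg1, a protein found in the cytoplasm of Schwann cells that myelinate, averaged 298 ± 61.7 CPM in Mutant nerves and 361 ± 32.9 CPM in Wild type nerves (SD, n = 3 each), with a log2 change of -0.28 (SE 0.22, adjusted p = 0.422).

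At day 14, 1314 of the 15852 tested genes (8.29%) passed the test at an adjusted p under 0.05, of which 1117 (7.05%) were higher and 197 (1.24%) lower in Mutant nerves. Past a 2-fold size (a log2 change of 1 or more in either direction) there were 463 higher (2.92%) and 41 lower genes (0.259%). The median log2 change of all tested genes was -0.019. In 1051 of the 1117 higher genes every Mutant library was above every Wild type library, and in 191 of the 197 lower genes every one was below. Over all tested genes, called or not, 13.7% were above and 11.1% below in this sense. At day 7 and at day 3 the same edgeR test called 0 genes, with 2094 and 299 genes at an unadjusted p under 0.05. Because the shared spread is below that of day 14 and above those of days 7 and 3, these counts are not directly comparable between days. The count at day 14 depended on single libraries: it was 139 without Wild type library 3, 223 without Wild type library 2, 244 without Mutant library 3 and 4959 without Mutant library 2. A fit of the 6 day 14 libraries alone called 0 genes (smallest adjusted p 0.0525, 2064 genes at an unadjusted p under 0.05), and DESeq2 over all 18 called 2342.

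Meg3, an imprinted long non-coding RNA expressed from the maternal chromosome (ENSMUSG00000021268.17, chromosome 12, 109541001 to 109571726, plus strand), had the smallest p of all tested genes. It had 42.6, 31.4 and 35.8 CPM in Mutant nerves, against 5.64, 6.196 and 4.83 CPM in Wild type nerves, with no overlap between the groups. The log2 change was 2.72 (SE 0.29, adjusted p = 0.00113), and all 3 Mutant nerves stood well above the Wild type nerves. Inpp4a, which removes a phosphate from an inositol lipid of the endosome and plasma membrane, had the next smallest p but for Uaca (ENSMUSG00000026113.17, chromosome 1, 37299865 to 37410736, plus strand), with 9.501, 6.96 and 10.2 CPM in Mutant nerves, against 2.54, 2.95 and 2.86 CPM in Wild type nerves. Its log2 change was 1.68 (SE 0.19, adjusted p = 0.00134). The promoters of Meg3 and Inpp4a are shown as an illustration. They were chosen after the promoters of several called genes had been searched for 6 motifs, because each holds the full cAMP response element TGACGTCA. The windows run from 250 bases before to 50 after the annotated start (RefSeq, GRCm38.p6), Meg3 at chr12:109540746-109541045 and Inpp4a at chr1:37299588-37299887, both on the plus strand. Capitals mark the element, which reads the same on both strands.
Meg3: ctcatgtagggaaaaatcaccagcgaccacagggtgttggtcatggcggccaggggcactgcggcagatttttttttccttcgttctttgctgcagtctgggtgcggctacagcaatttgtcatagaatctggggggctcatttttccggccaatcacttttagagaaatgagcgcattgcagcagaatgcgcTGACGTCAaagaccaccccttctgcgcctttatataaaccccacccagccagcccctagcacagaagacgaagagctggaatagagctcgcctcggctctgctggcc
Inpp4a: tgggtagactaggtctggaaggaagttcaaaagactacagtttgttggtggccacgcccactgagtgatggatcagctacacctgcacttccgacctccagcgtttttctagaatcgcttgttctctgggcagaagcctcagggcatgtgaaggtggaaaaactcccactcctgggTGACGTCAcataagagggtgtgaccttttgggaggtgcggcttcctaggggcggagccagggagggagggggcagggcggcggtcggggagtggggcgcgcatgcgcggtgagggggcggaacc

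The element lies 57 bases upstream of the start in Meg3 and 74 bases upstream in Inpp4a. It is absent from the window of the second of 2 annotated Meg3 starts and of the third of 3 annotated Inpp4a starts. Over the 10963 tested genes with a RefSeq promoter, 3.36% hold it, and of the 868 called higher genes with one, 2.76% do. The promoters cover 77.7% of the called higher genes, too few to compare these shares, and a match describes the letters only, not a bound site. The E-box CACGTG, found in 11.3% of these promoters, is in none of the windows of either gene. It contains no other motif searched but lies within TCACGTGA, which 2.04% of the promoters hold. The other 3 motifs searched on both strands were TCATGTGA, in 0.949% of the promoters, GGAATG, in 14.6%, and TGACTCA, in 4.94%.

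The 12 genes with the smallest p in each direction are described here, among those with a log2 change of at least 1 in size and a mean of at least 1 CPM. Uaca, a coiled-coil protein with ankyrin repeats, had 90.9, 71.7 and 101 CPM in Mutant nerves, against 41.9, 38.4 and 35.1 CPM in Wild type nerves, a log2 change of 1.19 (SE 0.13, adjusted p = 0.00113). Eea1, which tethers early endosomes, had 19.8, 20.3 and 28.96 CPM in Mutant nerves, against 9.66, 8.85 and 7.94 CPM in Wild type nerves, a log2 change of 1.38 (SE 0.18, adjusted p = 0.00143). Sh3pxd2a, a scaffold of podosomes, had 577, 402 and 702 CPM in Mutant nerves, against 255, 172 and 171 CPM in Wild type nerves, a log2 change of 1.49 (SE 0.21, adjusted p = 0.00225). In all 3 genes the Mutant levels lay wholly above the Wild type levels. Acin1, a member of a splicing-associated complex, had 47.6, 41.4 and 75.7 CPM in Mutant nerves, against 23.1, 17.5 and 20.01 CPM in Wild type nerves, a log2 change of 1.44 (SE 0.19, adjusted p = 0.00204). Nktr, a cyclophilin-related protein rich in arginine and serine, rose by 1.48 (SE 0.21, adjusted p = 0.00225), and Slx4, a scaffold for DNA repair nucleases, by 1.78 (SE 0.25, adjusted p = 0.00225). Leng8 rose by 1.88 (SE 0.24, adjusted p = 0.00143) and Fam193b by 1.58 (SE 0.21, adjusted p = 0.00204). The remaining members of the 12 were Cdc42bpg, a kinase bound by Cdc42, which rose by 1.41 (SE 0.18, adjusted p = 0.00143), and Dzip1, a zinc finger protein of the primary cilium, which rose by 1.46 (SE 0.195, adjusted p = 0.00204).

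Mutant library 3 was the highest of the 6 in 10 of these 12 genes and library 2 the lowest of the Mutant nerves in 11. No Mutant value of the 12 fell among the Wild type values, as in 1051 of all 1117 called higher genes. All 12 passed the test in 19 of 20 alternatives, the exception being the fit of the 6 day 14 libraries alone. Since the 12 were picked by p from these same libraries, neither the separation nor the kept calls are independent support.

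**Figure D1:**
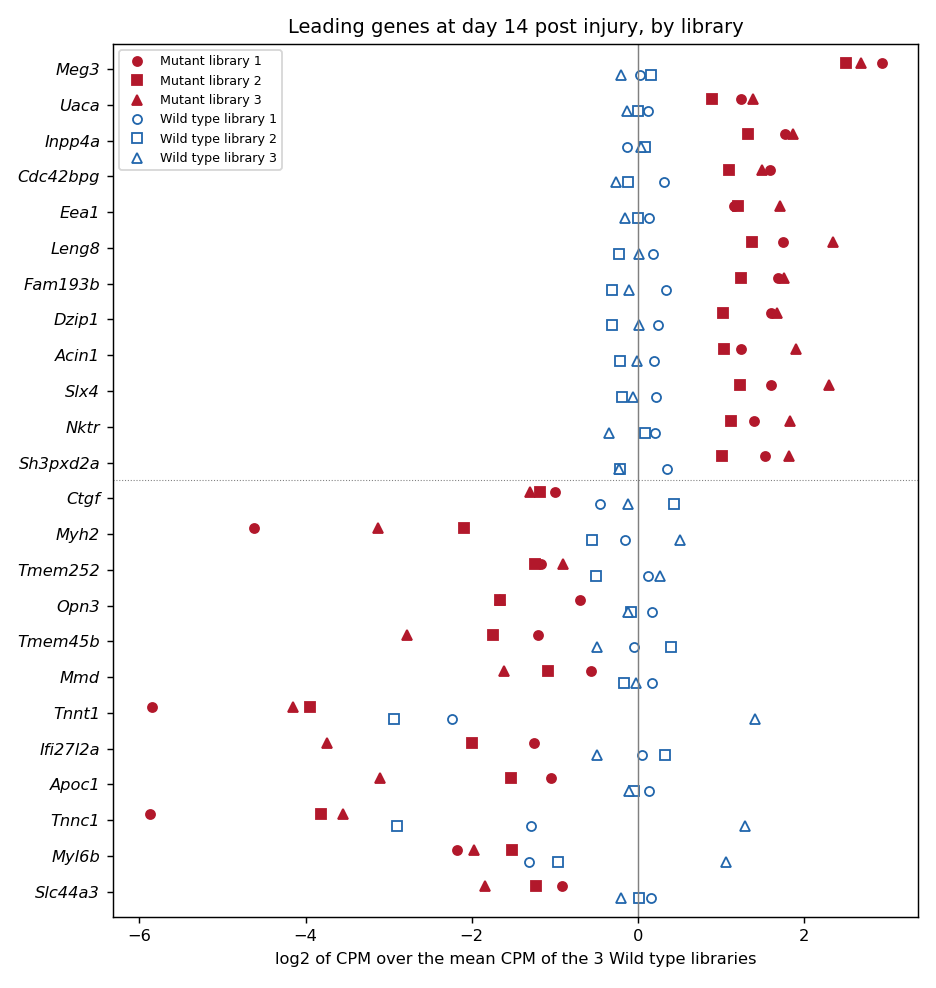
Level of the 12 leading higher genes (above the dotted line) and the 12 leading lower genes (below it) in each day 14 library, as the log2 ratio of its CPM to the mean CPM of the 3 Wild type libraries (horizontal axis). Filled red marks are Mutant and open blue marks Wild type libraries, with 1 shape per library number. Mutant and Wild type marks do not overlap in any of the 24 genes.

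Ctgf, a secreted matrix-associated protein and a known target of YAP and TGF-beta signalling, led the lower genes by p among those with a log2 change of at least 1 in size (ENSMUSG00000019997.11, chromosome 10, 24595442 to 24598683, plus strand). It had 82.96, 73.5 and 67.3 CPM in Mutant nerves, against 121, 225 and 152 CPM in Wild type nerves, and fell by 1.15 (SE 0.19, adjusted p = 0.00404) on the log2 scale. Wild type library 2 was the highest of the 6, and the groups did not overlap. Tmem252 had 13.4, 12.8 and 16.1 CPM in Mutant nerves, against 32.7, 21.2 and 36.1 CPM in Wild type nerves, and fell by 1.09 (SE 0.21, adjusted p = 0.00911). Opn3, a non-visual opsin, had 7.33, 3.77 and 3.77 CPM in Mutant nerves, against 13.4, 11.3 and 10.99 CPM in Wild type nerves, and fell by 1.26 (SE 0.25, adjusted p = 0.0106). Tmem252 and Opn3 were low in every Mutant nerve, with 1 Opn3 value nearer the Wild type range. Ifi27l2a, an interferon-inducible gene, had 279.8, 168 and 49.8 CPM in Mutant nerves, against 691, 835 and 476 CPM in Wild type nerves, and fell by 2.01 (SE 0.47, adjusted p = 0.0212). Apoc1, an apolipoprotein, had 41.1, 29.4 and 9.87 CPM in Mutant nerves, against 93.2, 82.5 and 79.2 CPM in Wild type nerves, and fell by 1.67 (SE 0.395, adjusted p = 0.0218). In both of the last genes Mutant library 3 was by far the lowest. Tmem45b fell by 1.77 (SE 0.36, adjusted p = 0.0123), Mmd, a membrane protein named for monocyte to macrophage differentiation, fell by 1.02 (SE 0.23, adjusted p = 0.0187), and Slc44a3, a choline transporter-like protein, fell by 1.28 (SE 0.31, adjusted p = 0.0242).

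The other 4 of the 12 leading lower genes, Myh2, Tnnt1, Tnnc1 and Myl6b, are genes of muscle fibres and are described with the muscle RNA. With Mutant library 3 left out, 3 of the 12 lower calls passed the test. The number was 4 without Wild type library 3, 7 without Wild type library 2, and 11 without Wild type library 1 or Mutant library 1. The 12 higher genes kept more calls, but they started from smaller adjusted p in edgeR's test, at most 0.00225 against 0.00404 to 0.0242. These counts therefore do not compare the 2 directions. Ctgf and Myh2 passed with each single library left out.

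Nuclear-retained RNAs were followed over time, since Meg3 is one of them. Of the 10 tested, 4 rose in Mutant nerves at day 14 and none fell, beside 7.05% and 1.24% of all tested genes, and the list's median log2 change was 1.57, beside -0.019 for all genes. The 4 were Meg3, Neat1, Snhg11 and Miat. Since Meg3 led to the choice of this list, the count of 4 is not independent of its result. The sex-linked Xist, described below, had the list's largest log2 change, 2.86, without passing the test. With an offset for the longest transcript, also described below, the list's median was 1.15 and 3 genes were called higher. Neat1, the RNA scaffold of paraspeckles, had 83.4, 56.1 and 67.9 CPM in Mutant nerves, against 12.9, 16.01 and 13.9 CPM in Wild type nerves, a log2 change of 2.28 (SE 0.34, adjusted p = 0.00352). Snhg11 had 3.203, 3.99 and 2.697 CPM in Mutant nerves, against 0.681, 0.811 and 0.381 CPM in Wild type nerves, a log2 change of 2.39 (SE 0.46, adjusted p = 0.00937). Miat was scarce, with 1.36, 0.797 and 1.22 CPM in Mutant nerves, against 0.372, 0 and 0.191 CPM in Wild type nerves, and rose by 2.504 (SE 0.72, adjusted p = 0.0454). No Wild type nerve reached the level of any Mutant nerve in these 4 RNAs. With single libraries left out, the calls of Meg3 and Neat1 were kept throughout, that of Miat was lost without Wild type library 2 or 3 and without Mutant library 1 or 3, and that of Snhg11 was lost without Wild type library 3 (adjusted p = 0.0693).

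Other nuclear-retained RNAs did not pass the test. Malat1, an abundant RNA of nuclear speckles, had 80.03, 95.9 and 72.3 CPM in Mutant nerves, against 107, 131 and 102 CPM in Wild type nerves, a log2 change of -0.45 (SE 0.26, adjusted p = 0.266). All Mutant values of Malat1 lay below its Wild type values. Rian, which comes from the same imprinted region as Meg3, had 152, 174 and 145 CPM in Mutant nerves, against 204, 192 and 166 CPM in Wild type nerves, a log2 change of -0.25 (SE 0.23, adjusted p = 0.485). Mirg, also of that region, had 2.88, 3.12 and 4.17 CPM in Mutant nerves, against 1.61, 2.88 and 1.14 CPM in Wild type nerves, and did not pass either, at 0.86 (SE 0.44, adjusted p = 0.209). Thus 1 RNA of the imprinted region passed the test and 2 did not.

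At the earlier days no difference in these RNAs passed the test. At day 7 Meg3 had 3.82, 2.56 and 3.53 CPM in Mutant nerves, against 10.3, 7.35 and 7.49 CPM in Wild type nerves. At day 3 it had 4.66, 4.93 and 9.75 CPM in Mutant nerves, against 12.7, 11.98 and 7.48 CPM in Wild type nerves. Mutant nerves were thus the lower ones at day 7, without passing the test at a log2 change of -1.34 (SE 0.29, adjusted p = 0.132). Neat1 had 9.44, 13.6 and 11.01 CPM in Mutant nerves, against 16.2, 9.86 and 14.99 CPM in Wild type nerves at day 7, and 27.4, 53.2 and 72.6 CPM in Mutant nerves, against 58.4, 112 and 52.7 CPM in Wild type nerves at day 3. Its levels in Mutant nerves at day 14 lay between the lowest and highest of the day 3 nerves, and its levels in Wild type nerves at day 14 did not exceed 16.01 CPM. The median of the list was -0.803 at day 7 and -0.58 at day 3.

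**Figure D2:**
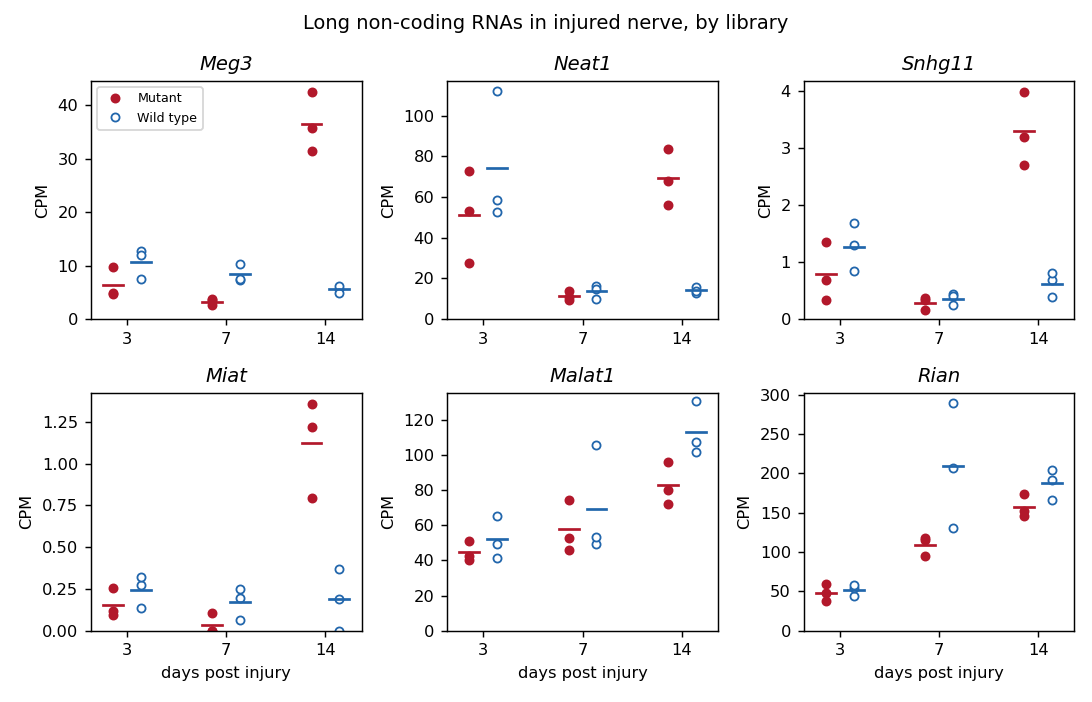
CPM (vertical axes, each from 0) of 6 long non-coding RNAs by days post injury (horizontal axes), with 1 point per library, filled red for Mutant and open blue for Wild type, and a bar at the mean of 3 libraries. At day 14 Meg3, Neat1, Snhg11 and Miat are higher in every Mutant library than in any Wild type library and pass the test. Malat1 is lower in every Mutant library and Rian overlaps, and neither passes the test.

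Whether a genotype difference changed with the day was tested by interaction contrasts over all 15852 genes. Between day 14 and day 7, 15 genes passed (0.0946%), 11 with a more positive and 4 with a more negative difference at day 14. Between day 14 and day 3, 9 genes passed (0.0568%), all more positive at day 14. The 2 contrasts share the day 14 libraries. Meg3 had the smallest p in both, with a change of 4.06 (SE 0.41, adjusted p = 0.000632) from the day 7 difference and of 3.45 (SE 0.396, adjusted p = 0.00384) from the day 3 difference. Adamts6, a secreted metalloprotease, changed by 2.92 (SE 0.46, adjusted p = 0.0238) against day 7. It had 4.34, 2.97 and 6.41 CPM in Mutant nerves, against 1.11, 0.738 and 1.08 CPM in Wild type nerves at day 14, and 1.36, 0.732 and 0.748 CPM in Mutant nerves, against 1.42, 1.63 and 1.59 CPM in Wild type nerves at day 7. The Mutant nerves were thus higher at day 14, while at day 7 every Mutant value lay below every Wild type value. Ccnl1, a cyclin linked to splicing, changed by 1.89 (SE 0.299, adjusted p = 0.0238) against day 7, Fam193b by 1.86 (SE 0.29, adjusted p = 0.0238) and Pnisr, an arginine and serine rich nuclear protein, by 1.60 (SE 0.26, adjusted p = 0.0286). Dnm3os lies antisense to Dnm3, and since the labels and notes do not state whether the counting used strand, reads of both may mix. It had 2.17, 2.03 and 3.16 CPM in Mutant nerves, against 0.248, 0.295 and 0.191 CPM in Wild type nerves at day 14, and its difference changed by 5.07 (SE 0.89, adjusted p = 0.0446) against day 7.

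Against day 3, 5 named genes besides Meg3 changed. Inpp4a changed by 1.87 (SE 0.26, adjusted p = 0.0176), Leng8 by 2.02 (SE 0.33, adjusted p = 0.0483) and Neat1 by 2.82 (SE 0.47, adjusted p = 0.0483). Gramd1a, a cholesterol carrier of the endoplasmic reticulum, changed by 1.06 (SE 0.15, adjusted p = 0.0176), and Traf3, an adaptor of TNF receptor family signalling, by 0.97 (SE 0.17, adjusted p = 0.0483). In Inpp4a the day 3 levels were 8.85, 9.79 and 10.2 in Mutant and 9.18, 13.3 and 10.4 in Wild type libraries (CPM), and at day 7 they were 3.82, 4.55 and 2.99 in Mutant and 3.21, 3.16 and 3.25 in Wild type libraries. Of the 3 Mutant levels at day 14, 2 lay within the day 3 range, while all 3 Wild type levels lay below the lowest value of day 7.

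The 4 genes with a more negative difference at day 14 than at day 7 were all positive at day 7. Tmem252 had 55.5, 42.9 and 62.2 CPM in Mutant nerves, against 31.1, 28.3 and 22.1 CPM in Wild type nerves at day 7, the reverse of day 14, and its difference changed by -2.07 (SE 0.29, adjusted p = 0.0178). S1pr1, a receptor for sphingosine-1-phosphate, had 75.4, 55.3 and 68.2 CPM in Mutant nerves, against 119, 88.6 and 122 CPM in Wild type nerves at day 14, and 121, 119.9 and 149 CPM in Mutant nerves, against 94.98, 88.9 and 83.5 CPM in Wild type nerves at day 7. Its difference changed by -1.27 (SE 0.21, adjusted p = 0.0286). Gnai1, a subunit of inhibitory G proteins, changed by -1.49 (SE 0.26, adjusted p = 0.0446). Slc27a1, a fatty acid transport protein, changed by -1.45 (SE 0.23, adjusted p = 0.0255), although its day 14 difference did not pass by itself, at -0.37 (SE 0.16, adjusted p = 0.157). Apart from Meg3, which kept its call against day 7 in 22 of 22 alternatives and against day 3 in 21, and Tmem252, which kept it in 20 of 22, each of these calls was kept in 5 to 13 of 22. Without Mutant library 2 of day 14 the counts were 212 against day 7 and 233 against day 3, without Mutant library 1 of day 14 the count against day 7 was 121, and leaving out any other single library gave 1 to 5.

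Genes of the dividing cell were next. Of 28 tested cell cycle genes 3 rose and none fell, beside the 7.05% of all tested genes called higher. The median was 0.25, and 26 of the 28 had a positive log2 change, beside 7698 of all 15852 tested genes. Without Mutant library 1 the test called 7 higher, without Mutant library 2 it called 8 higher and 1 lower, and without Wild type library 2 it called 1. Mki67, the proliferation marker Ki-67, had 24.5, 24.6 and 56.1 CPM in Mutant nerves, against 13.9, 11.1 and 8.45 CPM in Wild type nerves, a log2 change of 1.66 (SE 0.29, adjusted p = 0.00564). Cenpe, a kinesin of the kinetochore, had 4.51, 5.796 and 10.99 CPM in Mutant nerves, against 2.42, 1.84 and 2.605 CPM in Wild type nerves, a log2 change of 1.63 (SE 0.32, adjusted p = 0.00984). Cenpf, another kinetochore protein, had 11.3, 9.78 and 18.8 CPM in Mutant nerves, against 7.804, 5.83 and 4.89 CPM in Wild type nerves, a log2 change of 1.11 (SE 0.24, adjusted p = 0.0161). In all 3 the groups did not overlap and Mutant library 3 was the highest. Other members did not pass the test. Cdk1, the mitotic kinase, had 33.6, 40.8 and 42.3 CPM in Mutant nerves, against 45.2, 34.9 and 34.8 CPM in Wild type nerves with a log2 change of 0.022 (SE 0.17, adjusted p = 0.945), and Pcna, the replication clamp, had a log2 change of -0.39 (SE 0.15, adjusted p = 0.105). The summed level of the list was 537, 585 and 787 CPM in Mutant nerves and 653, 505 and 481 CPM in Wild type nerves. With an offset for transcript length, described below, Mki67 kept its call at 1.06 (adjusted p = 0.00902) while Cenpf lost it at 0.51 (adjusted p = 0.111). With single libraries left out, the call of Mki67 was kept, that of Cenpe was lost without Wild type library 2 (adjusted p = 0.0561), and that of Cenpf without Wild type library 2 or 3 and without Mutant library 3.

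Myelin genes stood on both sides of 0. Of 20 tested, none rose and 1 fell, beside 7.05% and 1.24% of all tested genes, and the median was -0.039. The gene that fell was the X-linked Mpp1, a membrane scaffold protein, which had 59.6, 51.9 and 43.1 CPM in Mutant nerves, against 75.6, 76.1 and 74.6 CPM in Wild type nerves, and fell by 0.55 (SE 0.12, adjusted p = 0.0137). Mbp had a log2 change of 0.00048 (SE 0.503, adjusted p = 1). Pmp22, a compact myelin protein, had 763, 543 and 354 CPM in Mutant nerves, against 850.0, 667 and 426 CPM in Wild type nerves, a log2 change of -0.23 (SE 0.84, adjusted p = 0.876), and the groups overlapped in both genes. Mutant library 1 at day 7, which enters the common estimate of the spread, stood apart in myelin genes, with an Mbp level of 1589 CPM. Of 25 cholesterol synthesis genes 1 fell, Ebp, a sterol isomerase that is also X-linked, which had 35.1, 31.4 and 28.8 CPM in Mutant nerves, against 45.2, 38.4 and 43.9 CPM in Wild type nerves, and fell by 0.42 (SE 0.103, adjusted p = 0.0239). None of the 25 rose, and the share of all tested genes called lower was again 1.24%. Both calls were lost without Mutant library 3 (adjusted p = 0.074 for Mpp1 and 0.158 for Ebp) and without Wild type library 3. Mpp1 also lost its call without Wild type library 2, and Ebp without Wild type library 1. With the offset for the longest transcript the log2 change of Ebp was -0.18 (adjusted p = 0.258).

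No gene of the repair Schwann cell passed the test. Of 31 tested, none was called, and the median was 0.071. Jun, which drives the repair state, had 77.4, 75.4 and 108 CPM in Mutant nerves, against 89.2, 77.97 and 91.7 CPM in Wild type nerves, a log2 change of 0.011 (SE 0.19, adjusted p = 0.976). Gap43, a growth-associated protein of repair cells and regrowing axons, had 56.1, 46.7 and 43.7 CPM in Mutant nerves, against 103, 58.1 and 61.1 CPM in Wild type nerves, a log2 change of -0.599 (SE 0.22, adjusted p = 0.0974), and Shh, an injury-induced Hedgehog ligand, had 1.74, 1.96 and 9.01 CPM in Mutant nerves, against 1.36, 0.664 and 2.73 CPM in Wild type nerves, a log2 change of 1.42 (SE 0.75, adjusted p = 0.223). Mutant library 3 was the highest of the 6 in both Jun and Shh. None of 15 genes of immature and non-myelinating Schwann cells passed either, with a median of 0.28. The largest positive values there were those of L1cam, an adhesion molecule, at 1.05 (SE 0.41, adjusted p = 0.116), and Sox10, at 0.99 (SE 0.38, adjusted p = 0.104), and both were highest in Mutant library 3. Of 17 genes of axon-induced growth factor and Neuregulin signalling none passed, though 15 were positive and the median was 0.49. Without Mutant library 2 the test called 9 of them higher, without Mutant library 3 the median was 0.19, and with the offset for the longest transcript it was 0.14. Erbb2, the co-receptor for Neuregulin, had 35.3, 32.5 and 58.6 CPM in Mutant nerves, against 34.0, 25.2 and 26.4 CPM in Wild type nerves, a log2 change of 0.56 (SE 0.197, adjusted p = 0.0838).

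Lysosomal genes had more negative than positive values. None of 37 tested genes was called, the median was -0.14, and in 13 every Mutant library was below every Wild type library, beside 11.1% of all tested genes. With the offset for the longest transcript the median was -0.069. Cd63, a membrane protein of late endosomes, had 553, 564 and 404 CPM in Mutant nerves, against 730.1, 646 and 792 CPM in Wild type nerves, a log2 change of -0.51 (SE 0.17, adjusted p = 0.0699). Npc2, which binds cholesterol in the lysosome, had a log2 change of -0.46 (SE 0.18, adjusted p = 0.115) and Atp6v1h, a proton pump subunit, of -0.35 (SE 0.13, adjusted p = 0.0954). The summed level was 8991, 8817 and 9268 CPM in Mutant nerves and 10009, 10157 and 10832 CPM in Wild type nerves. None of the 13 tested genes of pigment cells and MiT/TFE control passed, with a median of 0.086, and 6 pigment cell genes were too low to test. Tfe3, the relative of Mitf, had 67.7, 61.7 and 95.02 CPM in Mutant nerves, against 43.97, 48.9 and 43.8 CPM in Wild type nerves, a log2 change of 0.72 (SE 0.22, adjusted p = 0.0586), and its groups did not overlap. Flcn, folliculin, a regulator of these factors, had 26.1, 26.4 and 27.2 CPM in Mutant nerves, against 18.3, 21.02 and 21.2 CPM in Wild type nerves, a log2 change of 0.40 (SE 0.14, adjusted p = 0.0843).

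Ribosomal protein and oxidative phosphorylation genes had nearly all negative values, and none passed the test. Of 28 ribosomal protein genes none passed, 27 were negative, the median was -0.599, and in 20 every Mutant library was below every Wild type library, beside 11.1% of all tested genes. With the offset for the longest transcript, described below, the median was -0.19. Rps6 had 740.5, 697 and 347 CPM in Mutant nerves, against 1098, 983 and 902 CPM in Wild type nerves, a log2 change of -0.74 (SE 0.24, adjusted p = 0.0688). Without Mutant library 2 the edgeR test called 16 of them lower, and without Mutant library 3 the median was -0.296. Of 25 oxidative phosphorylation genes none passed and all 25 were negative, with a median of -0.51, but none had separate groups. Their summed level was 7691, 19044 and 3773 CPM in Mutant nerves and 9135, 17407 and 16332 CPM in Wild type nerves, and Mutant library 2 and Wild type libraries 2 and 3, which hold the most muscle RNA, were the highest. Without Mutant library 2 all 25 were called lower, without Mutant library 3 the median was -0.13, and with the offset for the longest transcript it was -0.301. The share of counts from genes of the mitochondrial genome itself went the other way. It was 7.22, 6.31 and 4.45% in Mutant libraries and 4.46, 4.52 and 3.43% in Wild type libraries, and was not tested. Glycolysis genes, 16 in all, had a median of -0.23 with none called.

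Of 18 stress response genes 1 fell, Psat1, an enzyme of serine synthesis, which had 56.2, 47.7 and 41.9 CPM in Mutant nerves, against 81.1, 70.7 and 62.1 CPM in Wild type nerves, and fell by 0.55 (SE 0.15, adjusted p = 0.0392). Of 16 interferon response genes 1 rose, Mx2, an antiviral GTPase, with 1.19, 1.16 and 2.04 CPM in Mutant nerves, against 0.372, 0.443 and 0.445 CPM in Wild type nerves, a log2 change of 1.796 (SE 0.52, adjusted p = 0.0475). Over all tested genes 1.24% were called lower and 7.05% higher. Neither the call of Psat1 nor that of Mx2 was kept with Wild type library 1 left out (adjusted p = 0.0987 for Psat1 and 0.0948 for Mx2). The same held without Wild type library 2 or 3 or Mutant library 3. None of 11 immediate early and heat shock genes and none of 20 extracellular matrix genes passed, with medians of -0.082 and 0.18. Mmp14, a membrane-bound matrix protease, had 211, 235 and 633 CPM in Mutant nerves, against 219, 106 and 147 CPM in Wild type nerves, a log2 change of 1.195 (SE 0.396, adjusted p = 0.0708), and was highest in Mutant library 3.

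**Figure D3:**
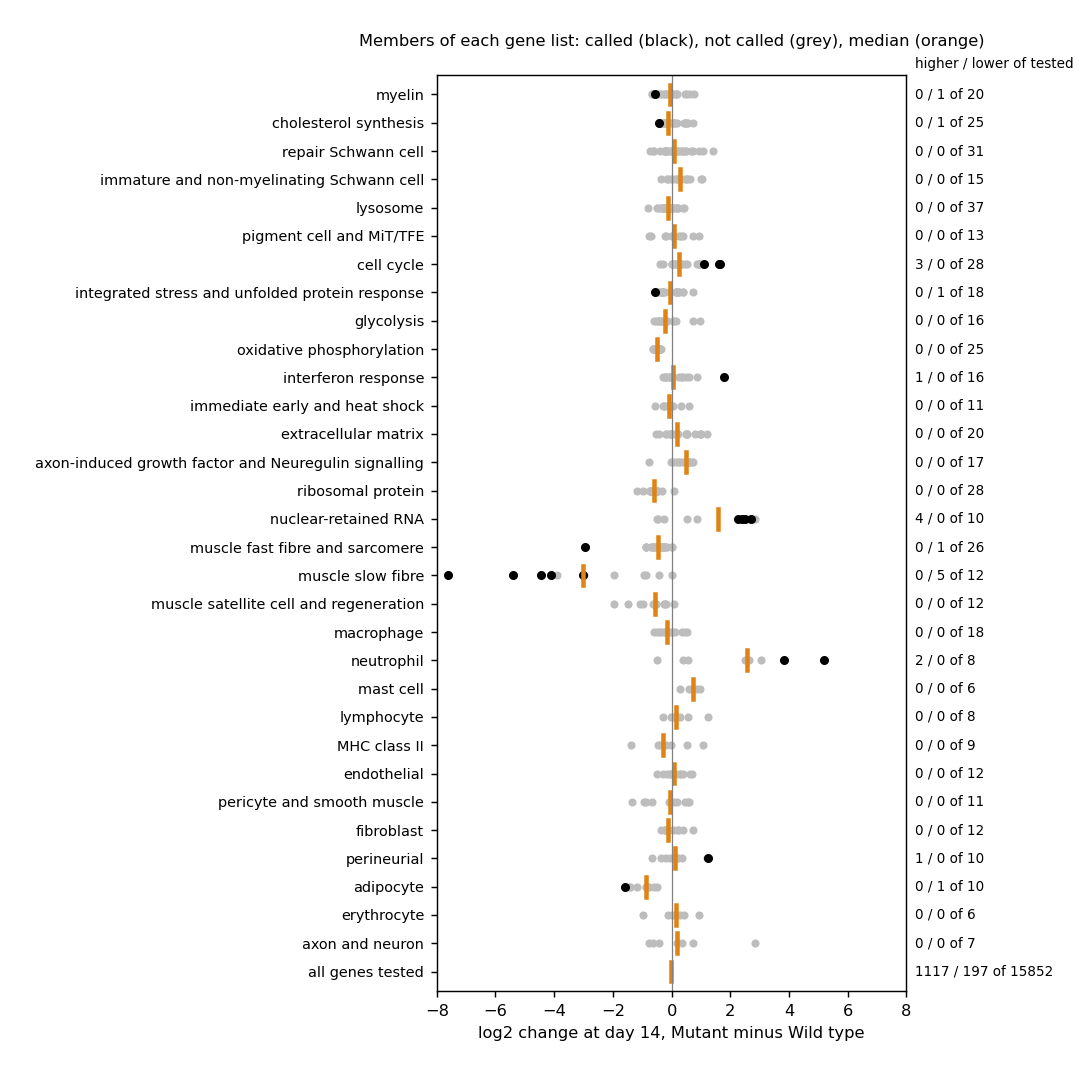
Log2 change at day 14, Mutant minus Wild type (horizontal axis), of each tested member of 31 gene lists (rows), black where the gene passed the test and grey where it did not, with the list median in orange. The right column gives the numbers called higher and lower of those tested, and the last row gives all tested genes, whose median is -0.019.

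Skeletal muscle RNA was examined next, because a dissected nerve can carry fibres of the surrounding muscle. The share of counts held by 26 fast fibre and sarcomere genes was 3.05, 12.9 and 1.01% in Mutant libraries and 1.098, 10.9 and 8.38% in Wild type libraries. Mutant library 2 was the highest and Mutant library 3 the lowest, and the groups overlapped fully. The summed level was 31109, 180029 and 8061 CPM in Mutant nerves and 12107, 148303 and 104902 CPM in Wild type nerves, a difference of -0.69 in mean log2 CPM (15.1 ± 2.25 in Mutant and 15.8 ± 1.96 in Wild type, SD, n = 3 each), smaller than either SD. The median over all 18 libraries was 4012 CPM, and day 3 nerves held 187 to 2802 CPM. With 3 against 3 samples an exact permutation test cannot go below p = 0.1, so no test was made of summed levels. Mylpf, a fast myosin light chain, had 5546, 44681 and 852 CPM in Mutant nerves, against 3475, 29244 and 17541 CPM in Wild type nerves, with a log2 change of 0.023 (SE 1.24, adjusted p = 0.993). Acta1, skeletal muscle actin, had 4702, 26803 and 1193 CPM in Mutant nerves, against 1711, 20591 and 16115 CPM in Wild type nerves, with a log2 change of -0.23 (SE 1.31, adjusted p = 0.922). Of the 26 genes 1 fell and none rose, beside 1.24% and 7.05% of all tested genes, and the median was -0.45.

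Some genes of slow and oxidative fibres fell in Mutant nerves. The fast list gene that fell was Myh2, the myosin heavy chain of oxidative fast fibres, which had 1.85, 10.7 and 5.19 CPM in Mutant nerves, against 40.8, 30.98 and 64.3 CPM in Wild type nerves, and fell by 2.96 (SE 0.49, adjusted p = 0.00433). Of 12 slow fibre genes 5 fell and none rose, beside 1.24% of all tested genes called lower, with a median of -3.01. Tnnt1, slow troponin T, had 3.64, 13.5 and 11.8 CPM in Mutant nerves, against 44.2, 27.3 and 555 CPM in Wild type nerves, and fell by 4.44 (SE 1.01, adjusted p = 0.0197). Tnnc1, slow troponin C, had 1.25, 5.22 and 6.26 CPM in Mutant nerves, against 30.2, 9.81 and 180.3 CPM in Wild type nerves (adjusted p = 0.0221). Wild type library 3 was far above all others in both genes. Myl3, a slow myosin light chain, had 0.271, 2.83 and 2.19 CPM in Mutant nerves, against 65.1, 5.39 and 956 CPM in Wild type nerves (adjusted p = 0.0419). Myl2 and Tnni1 were the other 2 called (adjusted p = 0.0341 and 0.048), and in Myl2 the groups overlapped. Myl6b, a myosin light chain outside the lists, had 3.801, 6.01 and 4.38 CPM in Mutant nerves, against 6.94, 8.85 and 35.7 CPM in Wild type nerves (adjusted p = 0.0236). Without Wild type library 3 none of the 5 slow fibre calls was kept, the log2 change of Tnnt1 was -1.899 (adjusted p = 0.111), and the list median was -1.47. None was kept without Mutant library 3. The calls of Myl3 and Tnni1 were also lost without Wild type library 2 or Mutant library 1, and that of Myl2 without Mutant library 1. The count of slow fibre genes called lower was 7 without Wild type library 1, 9 without Mutant library 2 and 1 with the offset for the longest transcript, while Myh2 kept its call with each single library left out.

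The ratio of the slow to the fast list differed between libraries. The slow list's sum as a percent of the fast list's was 1.83, 1.09 and 8.06% in Mutant libraries and 7.56, 1.16 and 5.03% in Wild type libraries. The slow sum was 568, 1965 and 649.9 CPM in Mutant nerves and 915, 1718 and 5276 CPM in Wild type nerves, and it includes Atp2a2 and Tpm3, which other tissues also express. Mutant library 2 and Wild type libraries 2 and 3 were the highest in both the slow and the fast sum. At day 3, where the fast sum was low, the slow sum was 677 to 816 CPM. Of 12 tested satellite cell and muscle regeneration genes none passed, with a median of -0.56, and Pax7, Myf5, Mymk and Mymx were not tested. When the log2 level of the fast list entered the fit as a covariate, 1515 genes were called (1217 higher and 298 lower), and when both the fast and the slow list entered, 159 were called (135 higher and 24 lower). Without the genes of the 3 muscle lists 1342 genes were called. When the 4 muscle-rich libraries of day 14 were left out, Mutant library 3 and Wild type library 1 remained and 4200 genes were called, 2214 higher and 1986 lower, on the assumption that these lone libraries vary like the other groups.

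**Figure D4:**
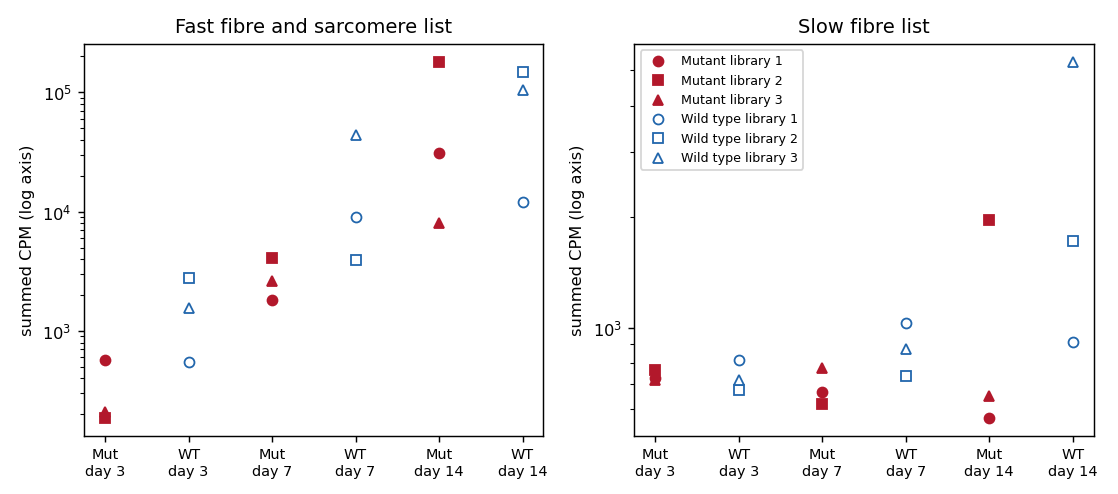
Summed CPM of the fast fibre and sarcomere list (left) and the slow fibre list (right) on log axes, for each library by genotype and day, filled red for Mutant and open blue for Wild type, with 1 shape per library number. The fast list is highest in Mutant library 2 (180029 CPM) and Wild type libraries 2 and 3 at day 14, and the slow list in Wild type library 3 (5276 CPM).

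The difference between the genotypes also depended on transcript length. Among 12999 genes at a mean of at least 1 CPM with an annotated length, the median log2 change ran from -0.34 in the shortest quintile of longest transcripts (168 to 1984 bases) through -0.12, 0.017 and 0.16 to 0.41 in the longest quintile (5310 to 106824 bases). The share called higher was 0.577%, 2.42%, 4.89%, 10.3% and 22.5% from the shortest to the longest quintile, and the share called lower was 2.81%, 1.96%, 1.12%, 0.654% and 0.231%. The called higher genes had a median longest transcript of 5634 bases, the called lower genes 2343 and all tested genes 3372. Spearman's rho of log2 change and longest transcript across genes was 0.51 at day 14, 0.25 at day 7 and 0.38 at day 3, a description over genes that are not independent replicates. With the median instead of the longest transcript of a gene it was 0.28 at day 14. Among the higher genes 71.9% had an annotated transcript with a retained intron, among the lower 52.5% and among all tested 56.0%.

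This dependence was steepest in Mutant library 3. The slope of log2 CPM per doubling of the longest transcript, against the mean of the 18 libraries, was -0.0451, -0.165 and 0.353 in Mutant libraries and -0.1603, -0.275 and -0.284 in Wild type libraries. Mutant library 3 had the highest and Wild type library 3 the lowest slope of all 18 libraries. Set against the mean of the Wild type nerves, rho was 0.41 for Mutant library 1, 0.21 for library 2 and 0.54 for library 3. Without Mutant library 3 it was 0.38 for the group. When an offset for the longest transcript entered the fit, 852 genes were called, 618 higher and 234 lower, and 627 of them were among the 1314. With both this offset and the fast muscle covariate 1223 genes were called, 781 higher and 442 lower. The 12 leading higher genes, Meg3 among them, and Neat1 kept their calls in both fits, though at least 2 of the 12 then had a log2 change under 1. With the offset alone the log2 change was 0.98 in Nktr and 0.95 in Sh3pxd2a. Among all 20 alternatives of the day 14 fit, the lowest log2 change of Uaca was 0.84 and that of Eea1 was 0.93.

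**Figure D5:**
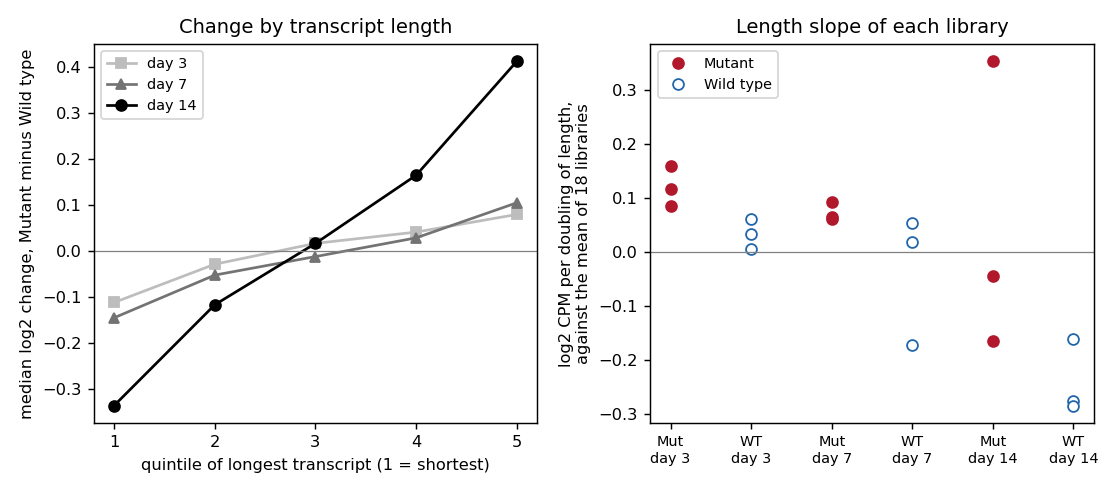
Left, median log2 change of Mutant minus Wild type (vertical axis) by quintile of longest transcript at days 3, 7 and 14, where day 14 runs from -0.34 to 0.41. Right, slope of log2 CPM per doubling of transcript length for each library against the mean of 18 libraries, filled red for Mutant and open blue for Wild type, where Mutant library 3 at day 14 (0.353) is the highest.

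Markers of other cell types were read beside these results. In bulk tissue fewer cells of a type and less RNA per cell cannot be told apart. Of 10 adipocyte genes all were negative, 1 fell, and in 6 every Mutant library was below every Wild type library, with a median of -0.87. Of all tested genes 1.24% fell and 11.1% were below in this way. Without Mutant library 1 the test called 6 of the 10 lower, with a median of -1.696. Cfd, adipsin, had 2510.0, 1252 and 678 CPM in Mutant nerves, against 4647, 4498 and 4110.2 CPM in Wild type nerves, and fell by 1.58 (SE 0.42, adjusted p = 0.0347). Adipoq, adiponectin, had 526, 281 and 155 CPM in Mutant nerves, against 899, 791 and 889 CPM in Wild type nerves, a log2 change of -1.42 (SE 0.43, adjusted p = 0.0536). Summed, the list stood at 6305, 3360.0 and 1983 CPM in Mutant nerves and 9759.7, 8724 and 8921 CPM in Wild type nerves, without overlap, and its part in the differences of other genes was not tested. The call of Cfd was lost without Mutant library 3 (adjusted p = 0.172) and without any single Wild type library.

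Of 8 tested neutrophil and myeloid precursor genes 2 rose and none fell, beside 7.05% of all tested genes called higher, with a median of 2.58. Without Mutant library 1 the median was 1.10 and 1 gene was called, without Mutant library 2 or 3 the test called 4, and without Wild type library 3 it called 0. Mpo, myeloperoxidase, had 4.29, 25.5 and 0.153 CPM in Mutant nerves, against 0.186, 0.443 and 0.191 CPM in Wild type nerves, a log2 change of 5.18 (SE 1.19, adjusted p = 0.0193). Camp, the cathelicidin of neutrophil granules, had 39.8, 12.97 and 2.09 CPM in Mutant nerves, against 0.3097, 2.66 and 0.953 CPM in Wild type nerves, a log2 change of 3.83 (SE 0.88, adjusted p = 0.0197). In both genes the groups overlapped. Mutant library 2 was the highest for Mpo and Mutant library 1 for Camp, and Mutant library 3 was within or below the Wild type range. Without Mutant library 2 the log2 change of Mpo was 3.01 (adjusted p = 0.0274), and without Mutant library 1 that of Camp was 2.53 (adjusted p = 0.0583). The call of Mpo was lost without Wild type library 2 or 3, and that of Camp without Wild type library 3. The summed level was 193, 89.8 and 17.8 CPM in Mutant nerves and 8.92, 25.7 and 18.7 CPM in Wild type nerves, and Ly6g and Ltf were too low to test. Without the muscle-rich libraries, which leaves out Mutant libraries 1 and 2, the log2 change of Mpo was -0.27. None of 6 mast cell genes passed, though all were positive (median 0.72, summed level 34.7 to 49.8 CPM in Mutant nerves and 21.4 to 28.8 CPM in Wild type nerves).

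None of 18 macrophage genes passed, with a median of -0.15 (0.15 with the offset for the longest transcript) and a summed level of 3236 to 4099 CPM in Mutant nerves and 4102 to 4616 CPM in Wild type nerves. The same held for 8 lymphocyte, 9 MHC class II, 12 endothelial, 11 pericyte and smooth muscle, 12 fibroblast, 6 erythrocyte and 7 axon and neuron genes, with medians between -0.29 and 0.195. Of 10 perineurial genes 1 rose, beside 7.05% of all tested genes called higher. This was Tenm2, a teneurin adhesion molecule, with 27.5, 28.5 and 78.4 CPM in Mutant nerves, against 19.7, 17.6 and 19.7 CPM in Wild type nerves. Its log2 change was 1.24 (SE 0.33, adjusted p = 0.0338). It was highest in Mutant library 3, and without that library the log2 change was 0.57 (adjusted p = 0.229). The call was also lost without any single Wild type library, and with the offset for the longest transcript the log2 change was 0.61 (adjusted p = 0.105). Acta2, smooth muscle actin, had 185, 119 and 141 CPM in Mutant nerves, against 207, 310.4 and 294 CPM in Wild type nerves, a log2 change of -0.87 (SE 0.29, adjusted p = 0.0758), and Tagln, another smooth muscle gene, of -0.96 (SE 0.297, adjusted p = 0.0576). Cd209a, a lectin of dendritic cells, had 4.13, 6.59 and 7.07 CPM in Mutant nerves, against 25.95, 9.74 and 10.2 CPM in Wild type nerves, a log2 change of -1.37 (SE 0.44, adjusted p = 0.0637). In these 3 genes all Mutant nerves were below all Wild type nerves.

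Sex-linked RNA was unevenly spread over the nerves, though Xist did not pass the test. Xist, which is expressed from the inactive X chromosome, had 62.1, 38.04 and 54.05 CPM in Mutant nerves, against 10.1, 7.75 and 3.43 CPM in Wild type nerves, a log2 change of 2.86 (SE 1.23, adjusted p = 0.145). The summed Y-linked genes had 39.4, 14.1 and 15.8 in Mutant libraries and 20.7, 47.6 and 97.6 in Wild type libraries (CPM), so both kinds were present in every library. The Xist levels did not overlap between the genotypes, so a difference in sex make-up cannot be told apart from genotype at day 14. The labels give no sex, and whether a library holds nerve of a single mouse or of several was not tested. Of the higher genes 1.40% are X-linked, of the lower 8.29% and of all tested 3.44%. With the log2 Y-linked level as a covariate 838 genes were called, 734 higher and 104 lower. The Y-linked level overlapped between the genotypes and Xist did not, so this covariate does not adjust for the Xist difference.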

How the data were processed

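Poly(A) RNA of quick-frozen mouse sciatic nerve was sequenced from TruSeq Stranded mRNA libraries, per the labels' protocols. The authors deposited estimated counts per gene, made with kallisto on mm10 per the submitters' processing notes; the kallisto version, annotation and strand setting were not given in the sources used here. Such counts share reads between similar genes by estimation. Of the deposited values 77.29% are whole numbers, and all were rounded before testing. No column of the table was left unused (0), and no 2 libraries of the same group agreed within sampling noise (lowest chi-square per degree of freedom 11.43).

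All 18 libraries of the time course, with 15.4 M to 21.7 M counts each, were fitted with 1 mean per group in edgeR 4.0.16 under R 4.3.3, with TMM scaling, filterByExpr at a minimum count of 10 and the robust quasi-likelihood test. Benjamini-Hochberg adjusted p-values over all 15852 tested genes were called under 0.05. The SE of a log2 change was derived from its F statistic. DESeq2 1.42.0 served as an alternative. Muscle-rich libraries were those with a fast list above 5 times the median of the 18. Transcript lengths came from GENCODE vM21, for 89% of tested genes, and promoters from RefSeq. The genes described are Mitf, Fig4 and Ndrg1, 12 genes per direction and 6 per interaction direction by p, leaving out predicted and sex-linked names, and from each list at least the 4 members with the smallest p or members needed to describe it. The comparison, the gene lists and the alternatives were chosen with earlier results of these data known. Correction for length used a lowess fit per library. The depth limits the precision of genes at few counts, and intervals from counts alone were not computed.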

Additional observations from a re-analysis of the deposited data

Results flagged for a closer look

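The results below were picked out because the Mutant minus Wild type difference itself changed between days in edgeR's quasi-likelihood test of the interaction contrast, with Benjamini-Hochberg adjustment over all tested genes. The 2 sets share the day 14 libraries and are given side by side, without a cause.

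Against day 7 the difference at day 14 was more positive in Meg3 by 4.06 on the log2 scale (SE 0.406, adjusted p = 0.000632), in Dnm3os by 5.07 (SE 0.887, adjusted p = 0.0446), in Adamts6 by 2.92 (SE 0.459, adjusted p = 0.0238), in Ccnl1 by 1.89 (SE 0.299, adjusted p = 0.0238), in Fam193b by 1.86 (SE 0.293, adjusted p = 0.0238) and in Pnisr by 1.60 (SE 0.263, adjusted p = 0.0286). It was more negative in 4 genes. The change was -2.07 in Tmem252 (SE 0.293, adjusted p = 0.0178), -1.45 in Slc27a1 (SE 0.233, adjusted p = 0.0255), -1.49 in Gnai1 (SE 0.262, adjusted p = 0.0446) and -1.27 in S1pr1 (SE 0.209, adjusted p = 0.0286).

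Against day 3 the difference at day 14 was more positive in Meg3 by 3.45 (SE 0.396, adjusted p = 0.00384), in Neat1 by 2.82 (SE 0.471, adjusted p = 0.0483), in Leng8 by 2.02 (SE 0.326, adjusted p = 0.0483), in Inpp4a by 1.87 (SE 0.264, adjusted p = 0.0176), in Gramd1a by 1.06 (SE 0.149, adjusted p = 0.0176) and in Traf3 by 0.97 (SE 0.165, adjusted p = 0.0483).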

How the results depend on the processing

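The count of 1314 genes differing at day 14 was 504 with a fold threshold, 2342 with DESeq2, 846 without a filter on low counts, 838 with the Y-linked covariate, 852 with the longest transcript offset, 159 with fast and slow muscle covariates, 4200 without the muscle-rich libraries and 0 in the 6 day 14 libraries alone (edgeR, 2064 genes at an unadjusted p under 0.05). Leaving out 1 library gave 139 to 4959: 139 without Wild type library 3, 223 without Wild type library 2, 244 without Mutant library 3 and 4959 without Mutant library 2.

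The 15 genes whose difference changed against day 7 were 27 with RLE scaling, 442 with DESeq2, 6 with the Y-linked covariate, 758 with the fast muscle covariate, 69 with the median and 83 with the longest transcript offset, 72 with fast and slow muscle covariates, 730 with the fast muscle covariate and longest transcript offset, and 1 to 212 with a library left out, where 121 came without Mutant library 1 and 212 without Mutant library 2 of day 14 and every other library gave 1 to 5. The 9 genes against day 3 were 225 with DESeq2, 5 with the Y-linked covariate, 996 with the fast muscle covariate, 3 with the median transcript offset, 0 with fast and slow muscle covariates (edgeR, 2306 at an unadjusted p under 0.05), 1077 with the fast muscle covariate and longest transcript offset, and 1 to 233 with a library left out, where 233 came without Mutant library 2 of day 14 and every other library gave 1 to 4. With the replicate number as a block, the counts were 856 at day 14, 6 against day 7 and 4 against day 3. Same-numbered day 14 libraries correlated at 0.123, 0.521 and -0.214, and 2 of 3 correlated best with their own. The labels do not say whether a shared number means more than a number.

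The Spearman correlation of log2 change and median transcript length was 0.278, and 0.51 with the longest transcript, -0.0403 with the median offset, 0.0115 with the longest offset and 0.0169 with that offset and the fast muscle covariate, which are built to remove it. The difference in the fast muscle sum, -0.69, ran from -1.86 without Mutant library 2 to 0.385 without Mutant library 3. Mpo reversed to -0.27 without the muscle-rich libraries, where its 2 high Mutant libraries are left out. For the other results the cause was not tested. The longest transcript offset, the slow muscle covariate, the combined fit and the fit without Mutant library 1 of day 7 were chosen after seeing the data.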

Other observations

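Some genes with changes smaller than 2-fold were among those with the smallest p at day 14. Gramd1a had 26.1, 25.8 and 32.4 CPM in Mutant nerves, against 14.2, 15.5 and 15.1 CPM in Wild type nerves, a log2 change of 0.91 (SE 0.11, adjusted p = 0.00134). Traf3 had 14.4, 15.4 and 18.5 CPM in Mutant nerves, against 8.86, 7.82 and 8.13 CPM in Wild type nerves, a log2 change of 0.96 (SE 0.12, adjusted p = 0.00143). S1pr1 fell by 0.73 (SE 0.15, adjusted p = 0.0121) and Gnai1 fell by 0.65 (SE 0.18, adjusted p = 0.0433). The call of S1pr1 was lost without Wild type library 3 or Mutant library 3, and that of Gnai1 without any single Wild type library or Mutant library 3. Adjusted p-values are those of edgeR's quasi-likelihood test with Benjamini-Hochberg adjustment.

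Rps2, a component of the small ribosomal subunit, was the 1 gene of its list with a positive log2 change, at 0.077 (SE 1.104, adjusted p = 0.971). It had 1138, 1649 and 387 CPM in Mutant nerves, against 1273, 1731 and 3.94 CPM in Wild type nerves, so that Wild type library 3 stood far below the other 5. The gene was chosen after its values were seen.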
